A study of Mus musculus with 13 samples.

Results

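Expression of 6 lysosome genes, Tfec, Rragd, Atp6v0d2, Ggh, Tmem106b and Laptm4b, was followed through RNA sequencing of CD45-positive cells from mouse EL4 tumours, whose count files hold 56923 gene IDs. The 6 genes were matched by Ensembl ID to their symbols, and each had 1 ID. They were chosen by their function, by a position where gene names fit the counts, and by measured values, namely CPM per library in PSGL1_KO against vector and the co-variation of the genes across libraries. That difference and that co-variation are therefore described below without a test. EL4 is a mouse T-cell lymphoma line, and its cells carry CD45 themselves, so a CD45-positive sort can hold tumour cells beside the leukocytes of the host. The PSGL1_KO group held 6 libraries from tumours of EL4 cells with a knockout of PSGL1, a selectin ligand of leukocytes encoded by Selplg. The vector group held 7 libraries from tumours of EL4 cells carrying a vector. In both groups 500000 cells were injected under the skin of mice aged 6 to 8 weeks, and tumours were taken after close to 20 days and sorted by flow cytometry. The mouse strain, and whether the knockout line is 1 clone, were not stated in the sources used here. The titles number the replicates but do not say that each came from a separate mouse, so the p-values rest on the spread between libraries, which may be technical.

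The lysosome is the acidic organelle in which cells degrade what they engulf or recycle, and macrophages hold many of them. A proton pump acidifies it, hydrolases work inside it, and Rag GTPases on its surface bring the growth kinase complex mTORC1 there when amino acids are plentiful. Transcription factors of the MiT/TFE family, which are Mitf, Tfeb, Tfe3 and Tfec, are known to drive genes of the lysosome.

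Counts assigned to gene IDs summed to 3710817 to 5712566 per library, with a median of 4584464. Mitochondrial IDs took 34.5% of the counts of vector replicate 5 and at most 17.8% of those of any other library. The first principal component (41.3% of variance) had opposite signs in PSGL1_KO and vector libraries, and the second (25.4%) in libraries whose number in the name of the deposited file starts with 7 and those in which it starts with 3. PSGL1_KO had 4 libraries of file number 7 and 2 of file number 3, and vector had 5 and 2. What this number stands for is not labelled. Over much of the genome, names and counts did not match: the IDs of Adgre1 and Ctsd, genes of macrophages and of the lysosome, had 0 counts in all libraries, Lamp1 had at most 3, and Csf1r at most 2. Cd68, which marks lysosomes of macrophages, had 15 to 111 counts in PSGL1_KO and 34 to 86 in vector libraries, so not all such IDs were near 0. The 6 genes lie inside 3 stretches, on chromosomes 4, 6 and 15, in which names and counts fit. There 53.5% of 469 protein-coding IDs averaged over 20 CPM (counts per 1000000), against 2.05% of 780 other IDs. IDs in these stretches are called name-checked. The ID of Ptprc, which encodes CD45, lies outside them, with 259 to 571 counts in PSGL1_KO and 149 to 336 in vector libraries. So does that of Selplg, with 3 to 63 counts in PSGL1_KO and 11 to 53 in vector libraries, so neither the sort nor the knockout could be checked. In these bulk samples, more cells of a type and more RNA per cell cannot be told apart.

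Tfec, Rragd and Ggh had higher values in every PSGL1_KO library than in any vector library, at mean ratios of 2.66, 3.85 and 2.29. Atp6v0d2 and Laptm4b had ratios of 1.99 and 1.63 with overlapping groups, and Tmem106b had 1.04. Levels are given as CPM normalised by TMM (a scaling that makes most IDs of the libraries comparable), and log2 fold changes (log2FC) are PSGL1_KO minus vector. Their standard errors (SE) and 95% intervals come from edgeR fitted over all 10422 IDs that passed a filter on low counts, which all 6 genes passed. No p-value is given for the 6 genes. In that fit 9.02% of all IDs passed an adjusted p of 0.05 with higher and 5.49% with lower levels in PSGL1_KO, and of 376 name-checked IDs 20.7% passed higher and 4.52% lower. Groups without overlap and with higher PSGL1_KO values were found in 4.14% of all IDs and in 10.1% of the name-checked ones. The genes were chosen with this contrast known, so nothing is read from how many had separate groups. Their median log2FC was 1.10, beside a median of -0.01 over all IDs tested and 0.20 over the name-checked ones. With TMM factors from name-checked nuclear genes the median over all IDs moved to -0.21, and the median of the 6 genes to 0.90.

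**Figure D1:**
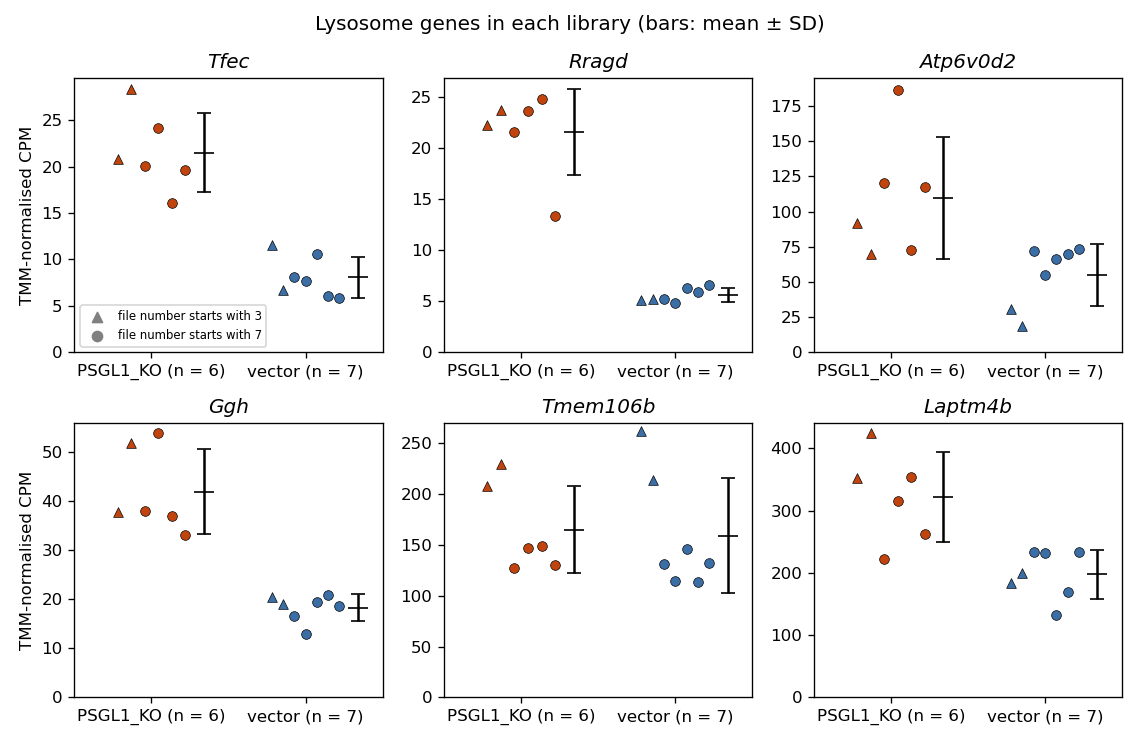
TMM-normalised CPM of the 6 genes (linear axes from 0) in each PSGL1_KO (left, n = 6) and vector library (right, n = 7), with triangles for file number 3, circles for file number 7, and bars for the mean and SD. Tfec, Rragd and Ggh have separate groups, Atp6v0d2 and Laptm4b overlap, and in Tmem106b the triangles lie above the circles in both groups.

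Tfec, the MiT/TFE factor whose expression in mice is largely restricted to the macrophage lineage (ID ENSMUSG00000029553.11, GRCm38 chromosome 6, 16833373 to 16898441, minus strand), was among the least abundant of the 6 genes per exon length. It had 20.8, 28.4, 20.1, 24.1, 16.1 and 19.6 CPM in PSGL1_KO replicates 1 to 6. In vector replicates 1 to 7 it had 11.5, 6.74, 8.13, 7.69, 10.6, 6.12 and 5.85 CPM. PSGL1_KO replicate 5, the lowest of its group, was above vector replicate 1, the highest of its own. Raw counts behind these values were 86 to 144 in PSGL1_KO and 23 to 45 in vector libraries. The mean was 21.5 ± 4.23 CPM in PSGL1_KO (SD, n = 6) and 8.09 ± 2.19 CPM in vector libraries (SD, n = 7), a log2FC of 1.41 ± 0.21 (SE) with an interval from 0.98 to 1.84. Within file number 7 the log2FC was 1.37 and within file number 3 it was 1.47.

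Rragd, one of the Rag GTPases that recruit mTORC1 to the lysosome and a known target of MiT/TFE factors (ENSMUSG00000028278.15, chromosome 4, 32983037 to 33022180, plus strand), showed the largest log2FC of the 6 genes. It had 22.2, 23.7, 21.5, 23.6, 24.8 and 13.3 CPM in PSGL1_KO replicates 1 to 6. In vector replicates 1 to 7 it had 5.12, 5.22, 5.26, 4.83, 6.26, 5.92 and 6.61 CPM. Replicate 6 stood below the other PSGL1_KO libraries, and it was still above all vector libraries, which spanned less than 2 CPM. The means were 21.5 ± 4.19 CPM in PSGL1_KO and 5.60 ± 0.66 CPM in vector libraries (SD, n = 6 and 7), a log2FC of 1.94 ± 0.19 (SE) with an interval from 1.54 to 2.34. It was 1.84 within file number 7 and 2.18 within file number 3. Without any 1 library it lay between 1.89 and 2.06, and for Tfec between 1.32 and 1.51.

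Promoter sequences were found for 3 of the 6 genes. Those of Tfec, Rragd and Tmem106b are shown because Tfec belongs to the family that reads the E-box CACGTG, and because Tfec and Rragd differed between the groups while Tmem106b hardly did. Each runs from 250 bases before to 50 after the start site (RefSeq, GRCm38.p6), 5′ to 3′ along the gene, with Tfec at chr6:16898392-16898691 (minus strand), Rragd at chr4:32982748-32983047 and Tmem106b at chr6:13069509-13069808 (both plus strand).
Tfec: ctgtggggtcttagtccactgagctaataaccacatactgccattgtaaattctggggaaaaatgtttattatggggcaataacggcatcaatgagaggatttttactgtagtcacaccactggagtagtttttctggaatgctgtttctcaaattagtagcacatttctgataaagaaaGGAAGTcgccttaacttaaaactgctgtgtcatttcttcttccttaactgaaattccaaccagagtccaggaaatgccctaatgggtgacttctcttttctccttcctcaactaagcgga
Rragd: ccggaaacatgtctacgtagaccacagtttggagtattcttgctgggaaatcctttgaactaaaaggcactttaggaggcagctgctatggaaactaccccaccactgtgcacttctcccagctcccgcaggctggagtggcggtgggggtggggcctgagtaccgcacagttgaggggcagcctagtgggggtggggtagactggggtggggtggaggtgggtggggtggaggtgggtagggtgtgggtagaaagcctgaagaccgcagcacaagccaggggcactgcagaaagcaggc
Tmem106b: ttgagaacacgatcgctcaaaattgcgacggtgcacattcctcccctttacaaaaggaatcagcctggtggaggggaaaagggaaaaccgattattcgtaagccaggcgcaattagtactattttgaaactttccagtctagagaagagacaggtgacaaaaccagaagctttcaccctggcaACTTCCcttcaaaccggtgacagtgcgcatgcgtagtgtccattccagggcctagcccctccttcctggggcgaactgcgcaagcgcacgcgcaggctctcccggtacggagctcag
Capitals mark GGAAGT on either strand, a core read by ETS factors such as PU.1 of myeloid cells. It occurred 70 bases before the start site in Tfec and, on the reverse strand as ACTTCC, 67 bases before it in Tmem106b. It was not in the Rragd window. Of 32544 RefSeq promoters of this length, 23.7% held it. Neither CACGTG nor CATGTG (or its reverse complement CACATG), the core of the M-box read by Mitf, was in these 3 windows. These letters occurred in 7.17% and 14.2% of promoters. The motifs do not overlap in these sequences, and a match marks letters, not binding.

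Atp6v0d2, the d2 subunit of the membrane sector of the proton pump, known from osteoclasts and macrophages (ENSMUSG00000028238.7, chromosome 4, 19876841 to 19922605, minus strand), varied most within the groups. It had 91.8, 70.1, 119.98, 186.3, 72.9 and 117.2 CPM in PSGL1_KO replicates 1 to 6. In vector replicates 1 to 7 it had 30.7, 18.7, 71.7, 54.7, 66.2, 69.8 and 73.2 CPM. PSGL1_KO replicate 4 was the highest library of all, vector replicates 1 and 2 were the lowest, and the groups overlapped at close to 72 CPM, with 4 of 6 PSGL1_KO libraries above every vector library. The coefficient of variation was 39.2% in PSGL1_KO and 39.7% in vector libraries, and it was 11.9% to 35.5% in the other 5 genes. The means were 109.7 ± 43.0 CPM in PSGL1_KO and 55.0 ± 21.9 CPM in vector libraries (SD, n = 6 and 7), a log2FC of 1.00 ± 0.29 (SE) with an interval from 0.39 to 1.60. Without PSGL1_KO replicate 4 it was 0.79, and with factors from name-checked nuclear genes 0.81.

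Ggh, the lysosomal gamma-glutamyl hydrolase that trims glutamate chains from folates (ENSMUSG00000073987.5, chromosome 4, 20042052 to 20066750, plus strand), lies beside Atp6v0d2 with Ttpa between them. It had 37.7, 51.8, 38.07, 53.8, 37.03 and 33.1 CPM in PSGL1_KO replicates 1 to 6. In vector replicates 1 to 7 it had 20.5, 19.1, 16.5, 12.96, 19.5, 20.9 and 18.6 CPM. All PSGL1_KO libraries were above all vector libraries, and replicates 2 and 4 of PSGL1_KO stood highest. The means were 41.9 ± 8.65 CPM in PSGL1_KO and 18.3 ± 2.76 CPM in vector libraries (SD, n = 6 and 7), a log2FC of 1.19 ± 0.17 (SE) with an interval from 0.84 to 1.55. It was 1.19 within file number 7 and 1.21 within file number 3. Ttpa, the vitamin E transfer gene between the pair, averaged 0.22 CPM over all libraries.

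Laptm4b and Tmem106b are membrane proteins of late endosomes and lysosomes. Laptm4b (ENSMUSG00000022257.5, chromosome 15, 34238028 to 34284302, plus strand) had 352.3, 425.2, 221.6, 315.7, 353.2 and 262.3 CPM in PSGL1_KO replicates 1 to 6. In vector replicates 1 to 7 it had 184.2, 199.6, 233.5, 231.01, 131.5, 168.7 and 233.9 CPM. PSGL1_KO replicate 3 was the only library of its group that lay within the vector range. The means were 321.7 ± 72.4 CPM in PSGL1_KO and 197.5 ± 39.0 CPM in vector libraries (SD, n = 6 and 7), a log2FC of 0.70 ± 0.17 (SE) with an interval from 0.34 to 1.06. Vector replicate 5, the library with the high mitochondrial share, was the lowest of all, and without it the other vector libraries had at least 168.7 CPM. Among 50-base words of the annotated transcripts of Laptm4b, 3.64% also occur in the pseudogene Gm6705, so a small part of its reads cannot be assigned with certainty. That share was 0.19% for Rragd and 0 for the other 4 genes. No exon of the 6 genes overlaps an annotated exon of another gene on either strand.

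Tmem106b, which influences the size and transport of lysosomes (ENSMUSG00000029571.15, chromosome 6, 13069759 to 13089269, plus strand), followed the file number rather than the group. It had 207.8, 229.4, 126.9, 146.7, 149.3 and 129.7 CPM in PSGL1_KO replicates 1 to 6. In vector replicates 1 to 7 it had 261.4, 213.5, 131.2, 114.6, 145.5, 113.8 and 132.4 CPM. Replicates 1 and 2 of both groups, which are the libraries of file number 3, were all above 200 CPM, and all others were below 150 CPM. The means were 165.0 ± 43.0 CPM in PSGL1_KO and 158.9 ± 56.5 CPM in vector libraries (SD, n = 6 and 7). The log2FC was 0.05 ± 0.21 (SE) with an interval from -0.39 to 0.50, and its sign turned to -0.16 with factors from name-checked nuclear genes. Without any 1 library it lay between -0.05 and 0.22.

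Per kilobase of annotated exon, Laptm4b was the most abundant of the 6 genes, at 166.0 ± 37.4 CPM per kilobase in PSGL1_KO and 101.9 ± 20.1 in vector libraries (SD). In PSGL1_KO it was followed by Atp6v0d2 at 40.4 ± 15.8, Tmem106b at 23.8 ± 6.21, Ggh at 21.3 ± 4.40, Rragd at 4.16 ± 0.81 and Tfec at 3.84 ± 0.76 CPM per kilobase. In vector libraries the order after Laptm4b was Tmem106b at 22.9 ± 8.14, Atp6v0d2 at 20.3 ± 8.05, Ggh at 9.31 ± 1.40, Tfec at 1.45 ± 0.39 and Rragd at 1.08 ± 0.13 CPM per kilobase. Neighbours within 1 SD of each other were Tmem106b and Ggh, and Rragd and Tfec, in PSGL1_KO libraries, and Tmem106b and Atp6v0d2, and Tfec and Rragd, in vector libraries. By log2FC (PSGL1_KO minus vector) among 307 name-checked protein-coding IDs tested, Rragd ranked 6, Tfec 15, Ggh 24, Atp6v0d2 37, Laptm4b 61 and Tmem106b 202. The genes were chosen with this contrast known, so nothing is read from these ranks.

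Levels also differed between libraries of file number 7 and of file number 3, most in Atp6v0d2 and Tmem106b. This difference enters the co-variation across libraries by which the genes were chosen, so it is described here without a test, from a fit with the group in the model. Atp6v0d2 had 54.7 to 186.3 CPM in the 9 libraries of file number 7 and 18.7 to 91.8 CPM in the 4 of file number 3, a log2FC (7 minus 3) of 1.00 ± 0.22 (SE). It was 0.59 within PSGL1_KO libraries and 1.49 within vector libraries. Tmem106b had 113.8 to 149.3 CPM in file number 7 and 207.8 to 261.4 CPM in file number 3, a log2FC of -0.78 ± 0.11 (SE), and these ranges did not overlap. It was -0.69 within PSGL1_KO libraries and -0.85 within vector libraries. Tfec had -0.27 (interval from -0.69 to 0.14), Rragd -0.02 (-0.43 to 0.40), Ggh -0.15 (-0.49 to 0.19) and Laptm4b -0.19 (-0.52 to 0.14).

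**Figure D2:**
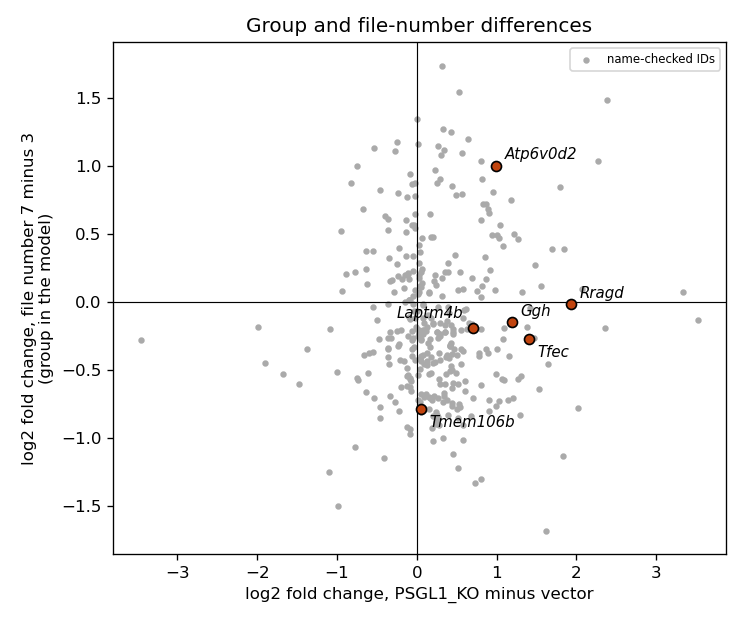
Each point is a name-checked ID tested, with its log2FC of PSGL1_KO minus vector on the x axis and of file number 7 minus 3 on the y axis, and the 6 lysosome genes in red. Rragd, Tfec and Ggh lie to the right near the horizontal line, Tmem106b lies near the vertical line at -0.78, and Atp6v0d2 is at about 1.00 on both axes.

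The log2FC of PSGL1_KO minus vector is given for each file number on its own, with their difference from an interaction term added after the data had been seen. For Atp6v0d2 it was 0.88 within file number 7, with mean levels of 124.1 CPM in PSGL1_KO and 67.1 CPM in vector libraries. Within file number 3 it was 1.76, with 81.0 CPM in PSGL1_KO and 24.7 CPM in vector libraries. The difference was -0.83 ± 0.39 (SE). Laptm4b had 0.52 within file number 7 and 1.05 within file number 3, and Tmem106b had 0.11 and -0.09. In the other 5 genes the difference lay between -0.49 ± 0.30 in Laptm4b and 0.24 ± 0.20 in Tmem106b (SE). File number 3 had only 2 libraries per group.

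Within the groups, pairs of the 6 genes differed in how they varied from library to library. After subtraction of each group's mean from log2 CPM, Pearson's r over the 13 libraries ranged from -0.74 to 0.55 among the 15 pairs, with a median of 0.10, and 8 pairs were above 0. These values are descriptions, since libraries share depth, scaling and file number. Rragd and Ggh had the highest r, 0.55 (Spearman's rho 0.43), which was 0.14 without the 2 libraries farthest from the median of Rragd, so it rests on those. Tfec and Tmem106b had 0.53 (rho 0.50), and 0.07 without the 2 libraries farthest from the median of Tfec. Atp6v0d2 and Tmem106b had the lowest, -0.74 (rho -0.60), and -0.58 without the 2 libraries farthest from the median of Atp6v0d2. With the mean of each file number within each group subtracted, that pair had 0.19, and the median of the 15 was 0.19. With factors from name-checked nuclear genes the median was -0.0039.

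**Figure D3:**
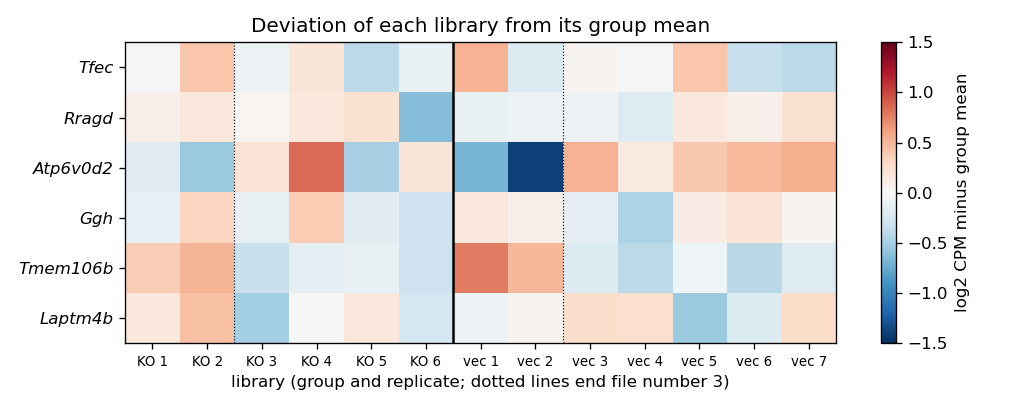
Log2 CPM of the 6 genes minus the mean of their group, in each PSGL1_KO (left of the solid line) and vector library (right), with dotted lines after the libraries of file number 3. Tmem106b is above its group mean in all 4 libraries of file number 3 and Atp6v0d2 below it, Rragd is lowest in PSGL1_KO replicate 6, and Laptm4b is lowest in vector replicate 5 and PSGL1_KO replicate 3.

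The genes most like each of the 6 in these group-centred values were sought among the other 306 name-checked protein-coding IDs. Mtdh (r = 0.99), Impad1 (0.98) and Lmbrd2 (0.97) were nearest to Tmem106b, and with file number also centred they had 0.93, 0.87 and 0.69. Zfp462 (0.88), Pabpc1 (0.87) and Pnrc1 (0.84) were nearest to Atp6v0d2, and with file number also centred they had 0.56, 0.54 and 0.32. Mob3b (0.88), Vcp (0.88) and 1700022I11Rik (0.88) were nearest to Laptm4b. Exons of Vcp and 1700022I11Rik overlap on opposite strands, so reads from the shared part may not be told apart. Tfec was nearest to Bmt2 (0.81), Gm12353 (0.80) and Sdhaf3 (0.78), with 0.78, 0.85 and 0.87 when file number was centred too. Gm12353 overlaps the ubiquitin ligase gene Wwp1 on the opposite strand. Ggh was nearest to Cav2 (0.72), Pip4p2 (0.71) and Il11ra1 (0.66), which overlaps Ccl27a on the opposite strand. The nearest of Rragd were Creb3 (0.63), Gem (0.59) and Melk (0.58), with rho of 0.60, 0.47 and 0.36. For each gene these are the 3 highest of 306 values over 13 libraries. That choice alone gives high r, and no test was made.

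Other genes of the pathway in the same stretches were listed by function from general knowledge, with earlier results of these data known. The list need not be complete. Of 16 tested, 7 were higher in PSGL1_KO and 1 was lower. Of name-checked IDs 20.7% were higher and 4.52% lower. With factors from name-checked nuclear genes the split was 4 higher and 2 lower, and of 376 name-checked IDs 52 were then higher and 39 lower. The median log2FC of the 16 was 0.43 in the main fit, beside 0.20 for name-checked IDs. With those factors the 2 medians were 0.22 and -0.03. No test of the list was made. The listed gene Slc45a2, a melanosome transporter, had at most 1 count in any library and was not tested.

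Of the nutrient-sensing genes, C9orf72, part of a complex with Smcr8 and Wdr41 at the lysosome, rose and Mios, a subunit of the GATOR2 complex that acts upstream of the Rag GTPases, fell. C9orf72 had 101.1 ± 18.2 CPM in PSGL1_KO and 55.4 ± 8.64 CPM in vector libraries (SD, n = 6 and 7), a log2FC of 0.87 ± 0.15 (SE, with an edgeR adjusted p = 0.00061). All PSGL1_KO libraries, from 75.5 CPM, were above all vector libraries, up to 70.3 CPM. Mios had 61.1 ± 17.7 CPM in PSGL1_KO and 95.1 ± 21.2 CPM in vector libraries, a log2FC of -0.64 ± 0.19 (edgeR adjusted p = 0.028). Its groups overlapped, and the call was lost without any 1 of PSGL1_KO replicates 3, 4, 5 and 6 and vector replicates 1, 2 and 3 (adjusted p from 0.053 to 0.086). Within each file number the groups of Mios did not overlap. Mios passed with the file number as a covariate (-0.69, edgeR adjusted p = 2.8e-05). It passed within file number 7 alone (-0.75, edgeR adjusted p = 0.00030) and within file number 3 alone (-0.55, edgeR adjusted p = 0.030). Mios also had -0.66 ± 0.11 for file number 7 minus 3 (edgeR adjusted p = 6.2e-05). An exon of Gm12367 overlaps C9orf72 on the opposite strand.

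Pip4p2, a phosphoinositide phosphatase of late endosomes and lysosomes, rose by a log2FC of 0.43 ± 0.13 (edgeR adjusted p = 0.026). It had 94.5 to 127.4 CPM in PSGL1_KO and 70.7 to 88.8 CPM in vector libraries, without overlap. It did not pass with factors from name-checked nuclear genes (log2FC 0.23, adjusted p = 0.17), nor with no filter on low counts (adjusted p = 0.16), within file number 3 alone (0.45, adjusted p = 0.080) or without any 1 of PSGL1_KO replicates 2 and 4 and vector replicates 3, 4 and 6 (adjusted p from 0.054 to 0.061).

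Of the 9 genes of endosomal sorting, Plekhf2, Sdcbp and Clvs1 rose. Plekhf2, an endosomal protein that binds phosphoinositides, had 130.0 ± 12.6 CPM in PSGL1_KO and 86.7 ± 12.4 CPM in vector libraries (SD, n = 6 and 7), a log2FC of 0.58 ± 0.13 (edgeR adjusted p = 0.0055) and no overlap. Sdcbp, the adaptor syntenin that acts in vesicles released from endosomes, had 1207 ± 316 CPM in PSGL1_KO and 794.4 ± 183 CPM in vector libraries, a log2FC of 0.60 ± 0.18 (edgeR adjusted p = 0.034). That call was lost with factors from name-checked nuclear genes (0.38, adjusted p = 0.067) and without any 1 of PSGL1_KO replicates 1, 2 and 4 and vector replicates 3, 4, 5, 6 and 7 (adjusted p from 0.054 to 0.085). Clvs1, a lipid-binding protein of clathrin vesicles, had 10.0 to 26.2 CPM in PSGL1_KO and 3.51 to 11.0 CPM in vector libraries, a log2FC of 1.53 ± 0.28 (edgeR adjusted p = 0.00088). Its exons overlap those of Asph on the opposite strand, and those of Sdcbp overlap Nsmaf. In both pairs reads from the shared parts may not be told apart. Asph averaged 42.8 CPM over all libraries, with a log2FC of 1.46, and Clvs1 averaged 11.4 CPM, so the rise of Clvs1 may not be its own. Nsmaf averaged 228.6 CPM, with a log2FC of -0.23, and Sdcbp averaged 984.7 CPM. The ESCRT genes Chmp5 and Ubap1 had 0.38 and 0.05, the clathrin light chain gene Clta 0.32, the ubiquitin ligase gene Wwp1 0.43, the ATPase gene Vcp 0.45 and the lipid transfer gene Vps13b -0.37, and none of these 6 passed (edgeR adjusted p from 0.081 to 0.84). Wwp1 passed without vector replicate 1 (0.54, adjusted p = 0.017) and Vcp without PSGL1_KO replicate 3 (0.59, adjusted p = 0.029). With the file number as a covariate Chmp5, Vps13b and Wwp1 passed, at 0.31, -0.39 and 0.41 (edgeR adjusted p of 0.047, 0.0081 and 0.0053). Clta had 0.13 within file number 7 and 0.84 within file number 3, Vcp 0.16 and 0.98, and Chmp5 0.21 and 0.55, and each passed within file number 3 alone (edgeR adjusted p of 0.00013, 5.8e-06 and 0.020). The differences between file numbers, -0.68 ± 0.22, -0.79 ± 0.28 and -0.30 ± 0.22 (SE), did not pass (edgeR adjusted p of 0.097, 0.13 and 0.49), while 2.11% of all IDs did.

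Of the 4 genes of autophagosomes and their fusion with lysosomes, Rab2a and Tbc1d2 rose. Rab2a, a small GTPase, had 373.1 to 704.5 CPM in PSGL1_KO and 292.4 to 360.2 CPM in vector libraries, without overlap, a log2FC of 0.57 ± 0.15 (edgeR adjusted p = 0.016). Tbc1d2, a regulator of the late-endosome GTPase Rab7, had 10.6 ± 3.86 CPM in PSGL1_KO and 5.51 ± 1.17 CPM in vector libraries (SD, n = 6 and 7), a log2FC of 0.95 ± 0.25 (edgeR adjusted p = 0.016). It did not pass with factors from name-checked nuclear genes (0.78, adjusted p = 0.068) or within file number 3 alone (0.72, adjusted p = 0.29). Stx17, the fusion SNARE of autophagosomes, had 0.31 and Trp53inp1, which binds proteins of the autophagosome membrane, 0.08, and neither passed (edgeR adjusted p of 0.14 and 0.79). Between file numbers, with the group in the model, 1 of the 16 pathway genes was higher in file number 7 and 9 were lower. Of all IDs 20.9% were higher and 18.9% lower, and of name-checked IDs 13.3% were higher and 33.0% lower. Without vector replicate 1, 5 pathway genes were lower, as were 105 of 372 name-checked IDs. The higher one was Tbc1d2, at 0.81 ± 0.23 (SE, with an edgeR adjusted p = 0.0071), and Chmp5 had the lowest value, -0.72 ± 0.12 (SE, with an edgeR adjusted p = 7.0e-05). With factors from name-checked nuclear genes the split was 3 higher and 4 lower. Of 376 name-checked IDs 86 were then higher and 85 lower, and of all 10422 IDs 3077 and 1195.

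**Figure D4:**
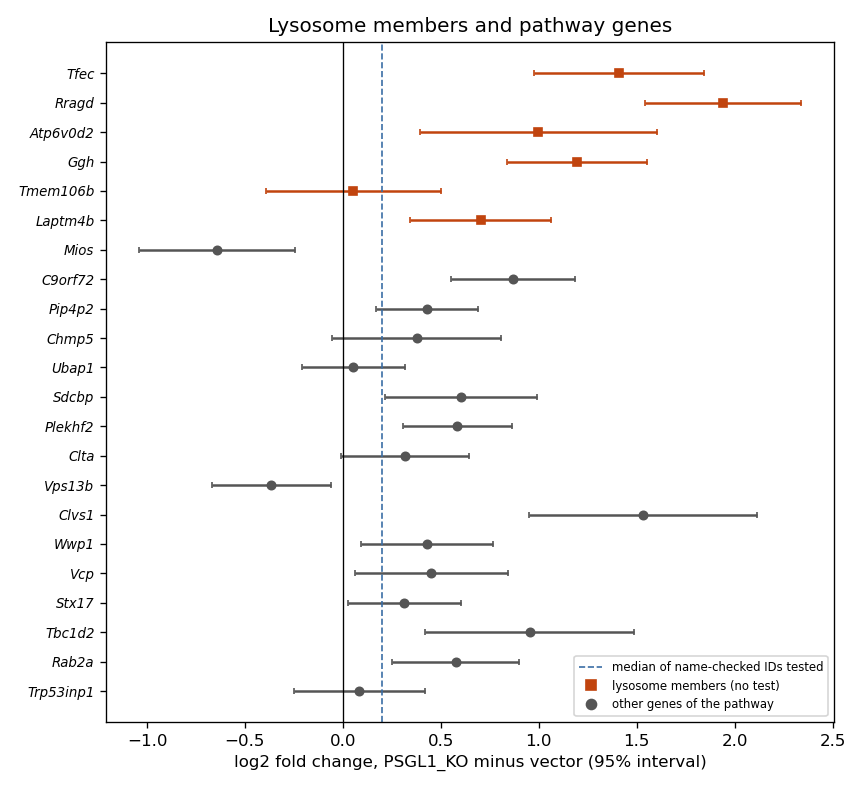
Log2FC of PSGL1_KO minus vector with 95% intervals from edgeR for the 6 lysosome genes (red squares, no test) and the 16 pathway genes tested (grey circles), with the median of name-checked IDs tested as a dashed line at 0.20. Among the pathway genes Clvs1 lies farthest right at 1.53 and Mios farthest left at -0.64.

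Markers of other cell types in the same stretches stood beside these differences as follows, and their part in them was not tested. The summed level of 2 B-cell markers, Pax5 and Cd72, was 151.6 to 319.2 CPM in PSGL1_KO and 29.7 to 77.0 CPM in vector libraries. Of the 2, Cd72 was higher and Pax5 did not pass (edgeR adjusted p = 0.10). Cd72 averaged 131.1 CPM over all libraries and Pax5 10.4 CPM. The summed level of 10 stromal markers was 891.1 to 4328 CPM in PSGL1_KO and 821.8 to 2380 CPM in vector libraries. Averaged over all libraries Col1a2 had 1963 CPM and the next of those tested, Cav1, 126.9 CPM, so Col1a2 weighs most in this sum. Col1a2 did not pass (edgeR adjusted p = 0.083). Of 8 tested 1, Reck, was higher and 0 lower, with a median log2FC of 0.48. Within file number 3 alone 4 of 9 stromal markers tested were higher. In that fit 114 of 376 name-checked IDs and 1312 of 10525 IDs in all were higher. In the fit over all libraries 20.7% of name-checked IDs were higher and 4.52% lower, with a median log2FC of 0.20. Of 4 T-cell markers Bach2 was higher and Sit1 lower. The 4 summed to 360.0 to 552.8 CPM in PSGL1_KO and 430.5 to 602.0 CPM in vector libraries. Tox was the most abundant of them, at 342.9 CPM averaged over all libraries, and Bach2 averaged 2.86 CPM. With no filter on low counts 0 of the 4 were higher and 1 was lower. Exons of Cd72 overlap Tesk1, and those of Bach2 overlap Bach2os, on the opposite strand. The red-cell marker Hemgn did not pass, at 0.82 to 3.38 CPM in PSGL1_KO and 1.96 to 7.10 CPM in vector libraries. Of 3 chemokines of lymphoid stroma Ccl19 and Ccl21a were at 0 in all libraries, and Ccl27a was higher. The 3 summed to 2.18 to 7.64 CPM in PSGL1_KO and 0.51 to 2.65 CPM in vector libraries. Ccl27a overlaps Il11ra1 on the opposite strand, so reads from the shared part may not be told apart. Averaged over all libraries Ccl27a had 2.78 CPM, with a log2FC of 1.38, and Il11ra1 122.5 CPM, with 1.27.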

How the data were processed

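The authors deposited, for each of the 13 samples, a file of raw read counts per versioned Ensembl gene ID. Per the submitters' processing notes the tools were HISAT2, SAMtools and HTSeq and the build mm10. Tool versions, annotation and strandedness were not stated in the sources used here. Gene IDs held 10.5% to 12.5% of all rows' totals, reads over no feature 67.3% to 75.4%, and the 5 HTSeq summary rows were left out. Symbols matched 52073 of 56923 IDs without their version. Positions, exon lengths and overlaps are those of GENCODE M21 (GRCm38), and the counted IDs come from a later annotation version. Genes were compared by name only inside 3 stretches (1249 IDs) taken over from an earlier analysis of these data, and counts of 7 IDs outside them are given only to show how names and counts fit there.

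The members and lists were chosen with earlier results of these data known. Groups came from the titles. The fits used edgeR 4.0.16 in R 4.3.3 (TMM, filterByExpr, robust quasi-likelihood test, two-sided, Benjamini-Hochberg over all IDs tested, threshold 0.05), with the group as the only term or, for the file number, the group and the first digit of the number. Centred values are log2 CPM with a prior count of 2. DESeq2 1.42.0, RLE factors, other filters, covariates and subsets and leaving out each library were tried, and the interaction and the count of pathway genes by file number were added after the data had been seen. Tests of the file number and counts past the threshold had been planned for the 6 genes and are not reported, since the values that chose the genes carry both differences. The procedure was tested on simulated data. Libraries of a group were compared for duplicates, and the lowest mean chi-square per ID was 3.23, where sampling noise gives about 1. Vector replicates 3, 4 and 7 were the most alike, with 3.23 to 3.98 among them. Other vector pairs had 9.79 to 103.3, and PSGL1_KO pairs 5.83 to 45.1. What makes those 3 libraries alike was not tested. Named were the 6 genes, all 17 listed pathway genes (Trp53inp1 had been listed under a human-style symbol) and the 3 genes of highest r with each. Relatives of the 6 genes were to be compared by protein, and protein sequences were not used here.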

Additional observations from a re-analysis of the deposited data

Results flagged for a closer look

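In groups of 6 or 7 libraries, 44 sets of CPM values of the 6 lysosome genes and of the 16 pathway genes tested were examined for 1 library standing apart from its group, and 3 did so, where chance gives about 1 in 20. Rragd was at 13.3 CPM in PSGL1_KO replicate 6, below 21.5 to 24.8 CPM in the other PSGL1_KO libraries. Wwp1 was at 213.6 CPM in vector replicate 1, above 124.8 to 157.0 CPM in the other vector libraries. Trp53inp1 was at 158.1 CPM in the same library, above 89.8 to 115.2 CPM in the others. The groups mix both file numbers, which the check did not take into account, and vector replicate 1 is of file number 3. Both genes had lower levels in file number 7 than in file number 3, at a log2FC of -0.47 ± 0.11 for Wwp1 and -0.39 ± 0.12 for Trp53inp1 (SE).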

How the results depend on the processing

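Under the alternatives tried, the log2FC (PSGL1_KO minus vector) of Tfec, Rragd, Ggh, Laptm4b and Atp6v0d2 stayed above 0. With factors from name-checked nuclear genes the median of the 6 genes was 0.90, the pathway calls were 4 higher and 2 lower instead of 7 and 1, and Ubap1 and Trp53inp1 turned to -0.14 and -0.12. That scaling moved the median over all IDs to -0.21. Calls over all IDs were then 601 higher and 1192 lower instead of 940 and 572. Among 376 name-checked IDs they were 52 and 39 instead of 78 and 17. Within file number 3 alone the median of the 6 genes was 1.34, and Atp6v0d2 had 1.76 and Laptm4b 1.05. The lower pathway calls were 2 with the replicate block, with the file number as covariate and within file number 7 alone, and the cause was not tested. The higher pathway calls in these fits were 8, 9 and 8. Name-checked IDs had 106 higher and 27 lower of 376 with the block, and 114 and 37 of 376 with the covariate. Within file number 7 alone they had 91 and 46 of 380. With the file number as covariate 1435 of all IDs were higher and 1254 lower. Leaving out each library in turn gave 5 to 8 higher and 0 to 1 lower pathway calls. The median of the 15 correlations was -0.0039 with factors from name-checked nuclear genes, against 0.10.

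For file number 7 minus 3, the pathway calls were 3 higher and 4 lower with name-checked factors, against 1 and 9. Of 376 name-checked IDs 86 were then higher and 85 lower, against 50 and 124. The lower pathway calls were 4 with no filter and within vector libraries, and 5 to 9 leaving out each library in turn. Lower name-checked IDs were 100 of 761 with no filter and 67 of 382 within vector libraries. Of the 6 genes, Rragd turned to 0.20 with name-checked factors, 0.030 with no filter, 0.20 within vector libraries, and, leaving out each library in turn, it ran from -0.097 to 0.052, above 0 without PSGL1_KO replicate 2 (0.0053) or 6. Ggh turned to 0.050 and Laptm4b to 0.011 with name-checked factors, and Laptm4b to 0.10 within vector libraries.

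The replicate block rests on numbers that need not pair the samples: same-numbered libraries had correlations of deviations from -0.05 to 0.60 over 6 pairs, and 2 of 6 PSGL1_KO libraries correlated best with their own number. With it 1176 IDs were higher and 964 lower, and 8 pathway genes were higher. Low counts limit Tfec and Rragd, which had 20 to 45 counts in vector libraries.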
